A study of Mus musculus with 6 samples.

Results

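The granulocyte-monocyte progenitors (GMPs) of tumor-bearing and tumor-free mice were compared in single-cell RNA-seq of c-Kit-enriched bone marrow. Cells with 500 to 7500 detected genes and at most 15% mitochondrial RNA were taken as GMPs when ln(1 + Ms4a3 UMIs per 10000) was over 3. UMIs are unique molecular identifiers, and Ms4a3 encodes a membrane protein of granulocyte-monocyte progenitors. The study set its limit of 3 on Ms4a3 values scaled in another way, so that the cells taken here need not be the ones it took. By this rule 1801 of the 8731 assigned cells of the non-tumor-bearing (NTB) and vehicle mice were GMPs, 400 from NTB mice and 1401 from vehicle mice. The rule was met by 3916 of 15966 assigned cells when the brequinar-treated (BRQ) mice were added. All mice were BALB/c and 10 weeks old at harvest. NTB mice carried no tumor and received no treatment. Vehicle mice carried 4T1 cells, a BALB/c mammary carcinoma line, implanted in the mammary gland, and received daily intraperitoneal buffer for 2 weeks once tumors could be measured. BRQ mice carried the same tumor and received brequinar, an inhibitor of the pyrimidine synthesis enzyme DHODH, on the same schedule. Each of 3 pools was 1 sample with 1 mouse per group, told apart by 3 hashtag antibodies, so that there were 3 NTB and 3 vehicle mice. Vehicle mice differed from NTB mice in both the tumor and the buffer injections, which cannot be told apart.

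GMPs stand between the multipotent progenitors and the neutrophil and monocyte lineages. At this stage the cells load primary granules with proteases and peroxidase made on membrane-bound ribosomes, so that the endoplasmic reticulum (ER), its chaperones and the route to the Golgi carry a large secretory load. Tumors that release granulocyte growth factors are known to expand myelopoiesis. Beyond the chaperones and granule proteins, the stage depends on ribosome production, on tRNA charging, on the proteasome and on surface receptors that hold progenitors in the marrow.

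The 3 pools held 11441 to 14297 barcodes and 100700982 to 135564079 gene UMIs, and 80 to 90 barcodes of each pool occurred in another pool. Pools 1, 2 and 3 gave 88, 135 and 177 NTB-GMPs and 1017, 95 and 289 Veh-GMPs. Values per mouse are given in this order of pools throughout, as CPM, which are UMI counts brought to a common total, in the summed GMPs. The summed GMPs held 998154 to 2068775 UMIs per NTB mouse and 1661618 to 16074010 per vehicle mouse. The median GMP held 10828.5, 11181 and 11581 UMIs in the NTB mice and 14737, 16327 and 17966 in the vehicle mice, without overlap. Mitochondrial RNA made up 3.61% to 3.71% of the GMP UMIs in NTB mice and 3.27% to 3.31% in vehicle mice. Scrublet marked 2.08% to 6.32% of the GMPs of a mouse as likely doublets. The Ms4a3 limit cut through a continuous range. The cell just above it held 19.09 Ms4a3 UMIs per 10000 and the cell just below it 19.08, and over all 9 mice 1988 GMPs lay within 0.25 ln units above the limit and 1745 other cells within 0.25 below it.

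The selected cells carried the primary granule transcripts used here as GMP markers. They also held S100a9 at 34803, 30864 and 30384 CPM in NTB-GMPs and 25158, 22486 and 22126 in Veh-GMPs, more than any of these markers. Camp, a marker of later neutrophils, was at 2538, 2268 and 1957 against 1459, 601 and 584 CPM. Cd34, a marker of stem cells, was at 3.27, 10.0 and 7.70 against 11.8, 4.39 and 4.85 CPM. How far the cells had matured was not tested. Ms4a3 itself chose the cells and is given as a description, at 2739, 2541 and 2353 CPM in NTB-GMPs and 2934, 2721 and 2618 in Veh-GMPs. Mpo, the peroxidase of primary granules, was at 8248, 7840.4 and 7033 CPM in NTB-GMPs and 5885, 6349 and 5974 in Veh-GMPs. All vehicle mice lay below all NTB mice for Mpo, with a log2 fold change of -0.34 (SE 0.11, adjusted p = 0.0454 in edgeR's quasi-likelihood test with Benjamini-Hochberg adjustment, which gave every adjusted p below). The Mpo call was lost when any 1 of the 6 mice was left out, at adjusted p of 0.0515 to 0.151. Ctsg, the cathepsin G protease of the same granules, rose from 3454, 2965 and 2263 CPM to 4051, 3942 and 3664 (log2 0.43, SE 0.13, adjusted p = 0.0327), and this call was lost without NTB mouse 2 or 3 or without vehicle mouse 1 or 2, with adjusted p up to 0.249. Elane, neutrophil elastase, was not called (log2 -0.34, adjusted p = 0.0854, or 0.00374 with the pool as a block), nor was the protease gene Prtn3 (log2 0.24, adjusted p = 0.21, or 0.023 with the block). The granule genes that define GMPs thus did not move in 1 direction.

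Of 32762 barcodes kept by the cell filters, 15966 were assigned to 1 of the 9 mice. Assigned cells numbered 554, 1307 and 2447 in the NTB mice and 2780, 382 and 1261 in the vehicle mice. The GMP share of the assigned cells was 15.9%, 10.3% and 7.23% in the NTB mice and 36.6%, 24.9% and 22.9% in the vehicle mice, as plotted per mouse. The groups did not overlap. The mean was 11.1% (SD 4.38, n = 3) against 28.1% (SD 7.39, n = 3), a difference of 17.0 percentage points. The two-sided exact permutation test gave p = 0.1, the smallest value that 3 against 3 mice allow. When cells were assigned by hashtag ratio the difference was 12.97 points (exact permutation p = 0.3), and when the limits of 500 and 7500 were read as UMIs it was -0.092 points (exact permutation p = 0.9). That reading keeps cells of low RNA content, and it left 8 to 89 GMPs per mouse.

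**Figure D1:**
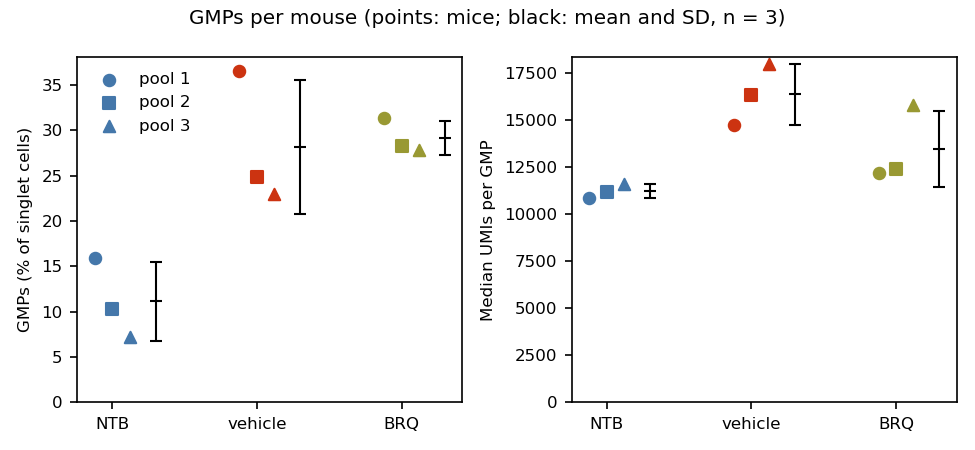
GMPs per mouse, with the share of assigned singlet cells in percent on the left and the median UMIs per GMP on the right. Points are mice, shapes are pools, and black bars are the mean and SD of 3 mice. All 3 vehicle mice lie above all 3 NTB mice in both panels, at 22.9% to 36.6% against 7.23% to 15.9% of cells.

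Of 10330 genes tested in the summed GMPs, 1169 (11.3%) were called at an adjusted p under 0.05. More genes were higher in Veh-GMPs (685, 6.63%) than lower (484, 4.69%), although with cells assigned by hashtag ratio 312 were higher and 325 lower. Large decreases were more frequent than large increases, and 44 called genes rose and 103 fell by more than 2-fold. An Ms4a3 limit of 2.5 gave 2509 called genes and a limit of 3.5 gave 40, the latter with only 9, 6 and 14 NTB-GMPs. With the pool as a block 989 genes were higher and 704 lower, so that list counts from that fit stand against more calls. The 2 groups did not overlap in 2935 genes (28.4%). The median log2 fold change of all genes tested was -0.014. The count rested on single mice: it was 659 without NTB mouse 2, 538 without NTB mouse 3 and 638 without vehicle mouse 1. When the GMPs were divided into 4 bins of UMI content and each mouse gave the same number per bin (64 cells per mouse), 288 genes were called.

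**Figure D2:**
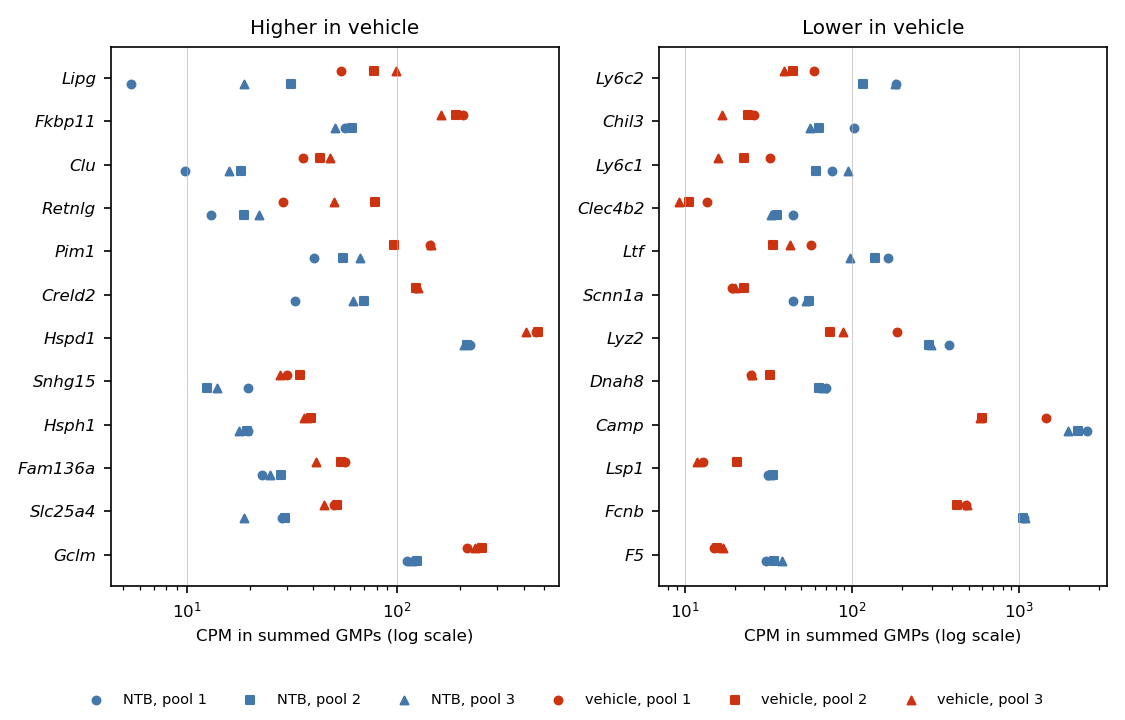
Levels of the 12 called genes with the largest increase and the 12 with the largest decrease, among genes with a mean of at least 20 CPM and no overlap between the groups. The horizontal axis is CPM in the summed GMPs on a log scale, colors are the groups and shapes are the pools. In each row the 3 vehicle mice stand on 1 side of the 3 NTB mice, as for Fkbp11 at 162 to 206 against 50.5 to 61.5 CPM.

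Among the lists, the largest share of members called higher was in the cytosolic and mitochondrial chaperones, which fold new and damaged proteins outside the ER. Of the 36 members tested, 24 (66.7%) were higher in Veh-GMPs, none was called lower, and the median log2 fold change was 0.42. Hspd1 (ENSMUSG00000025980, GRCm38, chromosome 1, 55077835 to 55088243, minus strand) encodes the mitochondrial chaperonin Hsp60. It was at 222, 215 and 208 CPM in NTB-GMPs and at 456, 471 and 412 in Veh-GMPs. The groups were far apart, with a log2 fold change of 1.05 (SE 0.11, adjusted p = 3.79e-06), and the call held without each mouse in turn. Hspe1, which encodes the lid of the same chaperonin and lies head to head with Hspd1, rose from 299.8, 282 and 324 CPM to 582, 541 and 575 (log2 0.91, SE 0.11, adjusted p = 1.27e-05). Hsph1, a nucleotide exchange factor of Hsp70, went from 19.6, 19.4 and 17.8 CPM to 38.7, 38.9 and 36.3 (log2 1.01, SE 0.16, adjusted p = 0.00023). Among the constitutive members, Hspa8 rose by 0.72 on the log2 scale (SE 0.09), Hsp90aa1 by 0.69 (SE 0.10) and the mitochondrial Hspa9 by 0.56. The TRiC chaperonin, which folds actin and tubulin, had 7 subunits called higher, at log2 0.39 (Cct7) to 0.54 (Cct6a).

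Among chaperones known to be induced by heat, calls were mixed. Hspa1a and Hspa1b, near-identical neighboring copies of inducible Hsp70 that counting may not separate, were both called higher at very low levels. Hspa1a was at 1.09, 0.627 and 0 CPM in NTB-GMPs and 5.11, 1.88 and 3.11 in Veh-GMPs, without overlap. Hspa1b was at 2.18, 3.14 and 0 CPM in NTB-GMPs and 10.95, 3.13 and 10.1 in Veh-GMPs, where the groups overlapped. Hspa1b lost its call without NTB mouse 3 (adjusted p = 0.088), and Hspa1a lost its call without NTB mouse 2 or 3 (adjusted p up to 0.142) and did not pass the count filter without vehicle mouse 1. DESeq2 gave no adjusted p for either gene. Neither the heat shock factor Hsf1 (log2 -0.08, adjusted p = 0.895) nor its target Bag3 (log2 -0.11, adjusted p = 0.885) was called. Dnajb1, another heat shock target, was at log2 -0.39 (adjusted p = 0.136, or 0.0366 with the block). With equal numbers of GMPs in each of 4 bins of late granule content, 8 chaperones were called higher and none lower, and the median was 0.37. Without NTB mouse 3 the chaperone count was 15, and with equal numbers of GMPs per UMI bin it was 6, with a median of 0.35.

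The promoter window of Hspd1 is shown because the windows of Hspd1 and Hspe1 both carry a heat shock element. This motif search was added after the values were seen. The window runs from 250 bases before to 50 bases after the start in the RefSeq annotation of GRCm38.p6, chr1:55087883-55088182 on the minus strand. Capitals mark the fixed letters of the motif, TTC, GAA and TTC with 2 free bases between them, searched on both strands, where matches overlap.
Hspd1: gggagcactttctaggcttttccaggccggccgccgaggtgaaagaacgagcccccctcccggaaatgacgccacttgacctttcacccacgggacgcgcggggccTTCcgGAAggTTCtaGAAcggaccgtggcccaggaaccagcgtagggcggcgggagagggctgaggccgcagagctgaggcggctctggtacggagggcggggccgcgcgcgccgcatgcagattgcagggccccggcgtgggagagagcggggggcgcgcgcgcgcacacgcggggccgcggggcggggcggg
This motif was found in 7 of 632 windows of genes called higher (1.11%), in 0 of 504 windows of genes called lower and in 52 of 10417 windows of all genes tested (0.499%). The 6 genes called higher were Hspd1, Hspe1, Hsph1, Chordc1, Timm9 and Prkrip1, of which the first 2 share the element. Hsph1 was counted in 2 overlapping windows that hold the same element. A match is a description of letters, and binding was not measured.

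Part of the genes of ribosome production in the nucleolus rose. Of 48 genes of RNA polymerase I and nucleolar ribosome assembly tested, 18 (37.5%) were higher and none was called lower, with a median log2 fold change of 0.40. With the pool as a block 27 were higher. Npm1, nucleophosmin, was at 1622, 1484 and 1413 CPM in NTB-GMPs and 2397, 2396 and 2156 in Veh-GMPs (log2 0.62, SE 0.09, adjusted p = 0.000116). Ncl, nucleolin, went from 777, 898 and 762 CPM to 1321, 1336 and 1196 (log2 0.66, SE 0.11, adjusted p = 0.000309). Both genes were without overlap. Nolc1, a nucleolar chaperone of small nucleolar RNPs, rose by 0.70 (SE 0.12), Gnl3, nucleostemin, by 0.70 (SE 0.13), and Fbl, the methyltransferase of ribosomal RNA, by 0.39. Myc, a known driver of these genes, was at 58.9, 43.3 and 52.5 CPM against 60.7, 75.8 and 50.7, which overlapped (log2 0.24, SE 0.14, adjusted p = 0.301). The list count was 11 without NTB mouse 3, and with equal numbers of GMPs per UMI bin it was 4, with a median of 0.25.

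Aminoacyl-tRNA synthetases, which load amino acids onto tRNAs, were also called in 1 direction. Of 22 synthetase genes tested, 11 (50%) rose and none was called lower, and the median was 0.39. Eef1e1, a scaffold of the multisynthetase complex, was at 28.3, 39.5 and 39.5 CPM in NTB-GMPs and 69.5, 65.8 and 64.3 in Veh-GMPs (log2 0.86, SE 0.14, adjusted p = 0.000313). Wars, the tryptophan enzyme, rose by 0.70 (SE 0.20, adjusted p = 0.0233), and Hars and Tars, for histidine and threonine, by 0.67 each. The number of synthetases called was 7 without NTB mouse 2, 3 without NTB mouse 3 and 5 without vehicle mouse 1. The response to amino acid shortage moved in part, with 5 of 17 genes higher and none lower. Atf4, its transcription factor, rose by 0.53, Asns, asparagine synthetase, by 0.58, and Slc7a5, the leucine transporter, from 11.99, 8.16 and 8.18 CPM to 19.2, 17.6 and 15.9 (log2 1.00, SE 0.24, adjusted p = 0.0098). The Slc7a5 call was lost without NTB mouse 2 or 3 or vehicle mouse 1 (adjusted p up to 0.107). With equal numbers of GMPs per UMI bin 3 synthetases and none of the amino acid response genes was called. Only 1 of the 18, 19 and 15 members then tested was called without NTB mouse 2, NTB mouse 3 and vehicle mouse 1, and 3 of 19 without NTB mouse 1.

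Proteins of the mitochondrial ribosome were called in 30 of 76 genes tested (39.5%), all 30 higher, with a median log2 fold change of 0.33. Mrps12 was at 61.0, 79.7 and 58.2 CPM in NTB-GMPs against 105, 106 and 106 (log2 0.67, SE 0.11, adjusted p = 0.000443), and the vehicle mice were nearly equal. Mrpl20, of the large subunit, rose by 0.66, and Mrpl12 by 0.61. This list was sensitive to single mice, since the number called was 13 without NTB mouse 2, 10 without NTB mouse 3 and 12 without vehicle mouse 1. With equal numbers of GMPs per UMI bin it was 3, with a median of 0.20. Of 69 respiratory chain and ATP synthase genes, 12 were higher and 1 was lower, with a median of 0.19, and with the pool as a block 30 were higher. Without NTB mouse 1, 21 were higher, and without NTB mouse 3, 8. Cycs, cytochrome c, went from 362, 301 and 344 CPM to 533, 513 and 511 (log2 0.64, SE 0.09, adjusted p = 6.92e-05). Uqcrq, of complex III, rose by 0.54 (SE 0.09). The member that fell was Cox6b2, a subunit of cytochrome oxidase known from testis, at 117, 119.8 and 113 CPM against 61.6, 48.9 and 56.3 (log2 -1.02, SE 0.14, adjusted p = 4.62e-05).

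The proteasome, which degrades tagged proteins, had 15 of 39 genes called, all higher, and a median of 0.31. With the block, 23 were higher and 1 was lower. Psmd14, the deubiquitinating subunit of the lid, was at 80.7, 84.1 and 76.1 CPM in NTB-GMPs and 122, 134 and 109.9 in Veh-GMPs (log2 0.59, SE 0.10, adjusted p = 0.000569). Psma3, of the core ring, rose by 0.52 (SE 0.11). The interferon-inducible subunit Psmb8 was not called (log2 0.12, adjusted p = 0.634), nor was Psmb9 (log2 -0.28, adjusted p = 0.207, or 0.0413 with the block). The proteasome count was 7 without NTB mouse 2, and 4 without NTB mouse 3 or without vehicle mouse 1. With equal numbers of GMPs per UMI bin or per late granule bin it was 1 in both, with a median of 0.19 and 0.21.

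**Figure D3:**
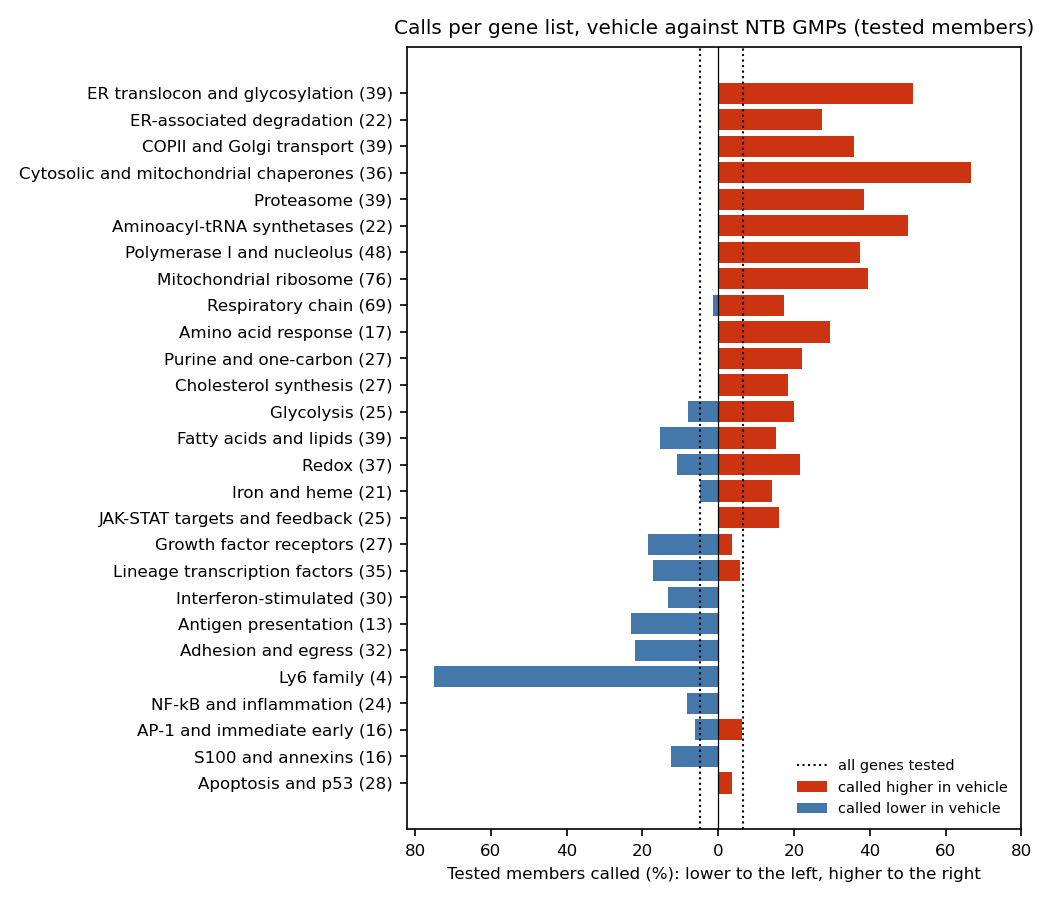
Share of the tested members of 27 gene lists that were called in Veh-GMPs against NTB-GMPs, with the number tested in parentheses. Bars to the right are members called higher and bars to the left members called lower, in percent, and dotted lines mark all genes tested (6.63% and 4.69%). Chaperones stand farthest to the right at 66.7%, and the Ly6 family farthest to the left at 75%, which is 3 of 4 genes.

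Along the secretory route, calls reached past the ER chaperones. In the list of translocation and N-glycosylation genes, which move new proteins into the ER and attach their sugars, 20 of 39 (51.3%) were higher and none was called lower, with a median of 0.32, whereas with cells assigned by hashtag ratio 8 were higher and 1 was lower. Ssr2, of the translocon-associated complex, was at 214, 207 and 184 CPM in NTB-GMPs and 342, 315 and 306 in Veh-GMPs (log2 0.68, SE 0.09, adjusted p = 2.9e-05). Ostc, of the oligosaccharyltransferase, went from 253, 228 and 207 CPM to 379, 339 and 336 (log2 0.64, SE 0.09, adjusted p = 8.41e-05). The groups did not overlap in either gene. COPII and Golgi transport genes were higher in 14 of 39 (35.9%), with a median of 0.25, and in 2 of 39 with cells assigned by hashtag ratio. In ER-associated degradation, which returns misfolded proteins to the cytosol, 6 of 22 genes were higher and none was called lower, and Selenos, of the retrotranslocation complex, rose by 0.51 (SE 0.09, adjusted p = 0.000733). The translocation count was 11 without NTB mouse 3 or without vehicle mouse 1, and the transport count was 9, 5 and 7 without NTB mouse 2, NTB mouse 3 and vehicle mouse 1. With equal numbers of GMPs per UMI bin the translocation, transport and degradation counts were 12, 5 and 0, with medians of 0.32, 0.27 and 0.28. The degradation count was 3 without NTB mouse 2, 2 without NTB mouse 3 and 3 without vehicle mouse 1. Fkbp11, a prolyl isomerase of the ER, had the largest separation of the route, at 56.7, 61.5 and 50.5 CPM against 206, 191 and 162.

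Promoters of 3 of these genes are shown because they carry the ER stress response element, CCAAT and CCACG with 9 bases between them, which the factors ATF6 and NF-Y are known to bind. Windows are from the RefSeq annotation of GRCm38.p6, from 250 bases before to 50 bases after the start, and capitals mark the fixed letters of the element on either strand. Hspa5, the BiP chaperone, is at chr2:34771840-34772139 on the plus strand. Creld2, an ER protein related to the disulfide isomerases in function, is at chr15:88819396-88819695 on the plus strand, and Syvn1, the ubiquitin ligase of ER-associated degradation, at chr19:6046326-6046625 on the plus strand. The genome sequence is of another strain than BALB/c.
Hspa5: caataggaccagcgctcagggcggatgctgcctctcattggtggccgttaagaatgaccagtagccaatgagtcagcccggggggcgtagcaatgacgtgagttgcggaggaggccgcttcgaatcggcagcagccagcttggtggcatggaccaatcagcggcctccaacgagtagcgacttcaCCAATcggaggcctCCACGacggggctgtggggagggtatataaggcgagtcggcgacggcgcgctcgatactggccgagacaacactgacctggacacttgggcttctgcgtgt
Creld2: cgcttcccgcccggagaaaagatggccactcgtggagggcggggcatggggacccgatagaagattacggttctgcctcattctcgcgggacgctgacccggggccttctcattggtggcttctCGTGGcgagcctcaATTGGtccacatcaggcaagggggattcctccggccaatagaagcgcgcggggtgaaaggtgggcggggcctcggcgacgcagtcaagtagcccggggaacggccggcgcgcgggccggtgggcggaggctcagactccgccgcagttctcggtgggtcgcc
Syvn1: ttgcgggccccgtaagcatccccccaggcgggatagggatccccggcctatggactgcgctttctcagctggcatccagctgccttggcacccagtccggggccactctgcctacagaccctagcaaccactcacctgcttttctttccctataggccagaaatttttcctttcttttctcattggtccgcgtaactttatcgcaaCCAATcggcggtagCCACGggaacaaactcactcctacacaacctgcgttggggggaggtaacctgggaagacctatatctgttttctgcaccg
The element was rare, in 13 of 10417 windows of genes tested (0.125%). It stood in 8 of 632 windows of genes called higher (1.27%) and in 0 of 504 windows of genes called lower. The 8 genes were Creld2, Hspa5, Dnajc3, Calr, Hsp90b1, Syvn1, Pdia6 and Canx, all of them ER proteins. The other 5 genes were not called. Among these, Alg12 shares its element with Creld2 on the opposite strand, and Derl3 was at log2 1.25 (SE 0.56, adjusted p = 0.155) with levels of at most 6.27 CPM.

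**Figure D4:**
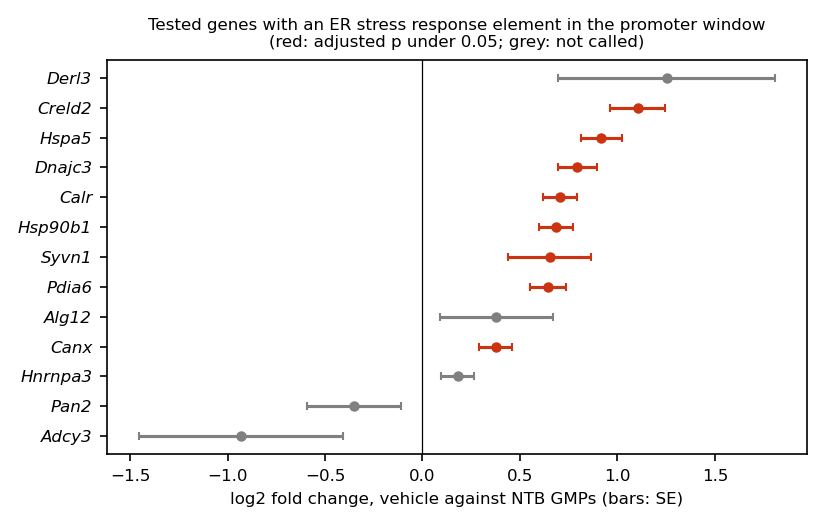
Log2 fold change of Veh-GMPs against NTB-GMPs for the 13 tested genes with an ER stress response element in the promoter window. Points are estimates, bars are SE, red marks the 8 genes called and grey the other 5. All 8 called genes lie to the right of 0, from Canx at 0.38 to Creld2 at 1.10, and Adcy3 is lowest at -0.93.

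Creld2 had been at 32.7, 69.6 and 62.1 CPM in NTB-GMPs and stood at 124, 123 and 126 in Veh-GMPs (log2 1.10, SE 0.14, adjusted p = 2.6e-05). Its NTB levels differed more between mice than its vehicle levels. Syvn1 was near the threshold, at 14.2, 10.0 and 14.4 CPM against 21.5, 23.8 and 16.5 (log2 0.65, SE 0.21, adjusted p = 0.0475, or 0.0524 with the pool as a block). Its call was lost when any mouse but vehicle mouse 3 was left out, with adjusted p up to 0.233. A further string searched on both strands, TGACGTGG, related to the sites of ATF6 and XBP1, was in 9 of 632 windows of genes called higher (1.42%), 0 of 504 called lower and 92 of all 10417 (0.883%). The STAT-type string TTCCNGGAA was in 13 (2.06%), 2 (0.397%) and 134 (1.29%) of the same windows, and the amino acid response string TGATGCAAT in 1 (0.158%), 1 (0.198%) and 9 (0.0864%).

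In central metabolism, calls went in both directions in glycolysis. Of 25 glycolysis genes tested, 5 were higher and 2 lower, and with the pool as a block 8 were higher and 4 lower. The number lower was 1 without NTB mouse 1, NTB mouse 2 or vehicle mouse 2. Ldha, the lactate dehydrogenase subunit of glycolytic cells, was at 290.0, 254 and 256 CPM in NTB-GMPs and 424, 450.0 and 357 in Veh-GMPs (log2 0.62, SE 0.10, adjusted p = 0.000272). Gapdh, Pgk1 and Tpi1, enzymes of the lower pathway, rose by 0.51, 0.44 and 0.43, whereas Hk3, a hexokinase of granulocytes, fell by 0.78 (SE 0.12), from 106, 116 and 111 CPM to 59.5, 77.1 and 65.4. Ldhb, the other main lactate dehydrogenase subunit, was also called lower, at 83.9, 65.2 and 40.4 CPM against 42.9, 20.1 and 21.9, where the groups overlapped (log2 -0.88, SE 0.28, adjusted p = 0.0415), and its call was lost without NTB mouse 1 or 2 or vehicle mouse 2 or 3 (adjusted p up to 0.191). Serine and one-carbon enzymes were among the 6 of 27 genes of purine and one-carbon synthesis called, all higher, and with the block 9 were higher and 1 was lower. Psat1 and Phgdh, of serine synthesis, rose by 0.71 and 0.48, and the mitochondrial folate enzyme Mthfd2 by 0.76 (SE 0.18, adjusted p = 0.00844). The Psat1 call was lost without NTB mouse 3 (adjusted p = 0.0578) and the Mthfd2 call without NTB mouse 2 or 3 (adjusted p up to 0.0523). The one-carbon count was 4 without NTB mouse 2 or vehicle mouse 1 and 2 without NTB mouse 3.

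Cholesterol synthesis was called in 5 of 27 genes, all higher, with a median log2 fold change of 0.37. Fdps, which makes farnesyl diphosphate, was at 76.3, 84.7 and 68.4 CPM in NTB-GMPs and 137, 157 and 143 in Veh-GMPs (log2 0.92, SE 0.12, adjusted p = 2.52e-05). Idi1, the preceding isomerase, rose by 0.68 (SE 0.19, adjusted p = 0.0197), a call lost without NTB mouse 2 or 3 (adjusted p up to 0.123). Sqle, squalene epoxidase, was at log2 0.44 (adjusted p = 0.198). The count was 2 without NTB mouse 2 or without NTB mouse 3.

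Lipid genes changed in both directions, with 6 of 39 higher, 6 lower and a median of -0.015, and with the pool as a block 10 were higher and 8 lower. The largest decrease was in Lpl (ENSMUSG00000015568, GRCm38, chromosome 8, 68880491 to 68907448, plus strand), lipoprotein lipase, which releases fatty acids from circulating lipoproteins. It was at 27.3, 21.3 and 25.0 CPM in NTB-GMPs and at 4.91, 3.76 and 2.52 in Veh-GMPs (log2 -2.56, SE 0.30, adjusted p = 1.27e-05). The related endothelial lipase Lipg, which acts mainly on phospholipids, moved the other way, from 5.45, 31.4 and 18.8 CPM to 54.1, 77.7 and 98.8. Neither gene overlapped between the groups, although the NTB levels of Lipg were spread widely. Alox5, the first enzyme of leukotriene synthesis, fell from 13.1, 13.2 and 15.9 CPM to 5.38, 2.51 and 4.27 (log2 -1.59, SE 0.25, adjusted p = 0.000275). Dgat2, which completes triglycerides, was at 18.5, 23.8 and 24.6 CPM against 37.8, 48.9 and 52.0 (log2 0.96, SE 0.20, adjusted p = 0.00242). Fasn, fatty acid synthase, rose by 0.63 and the carrier Fabp5 by 0.91, while the droplet protein Plin2 fell by 0.59. The calls higher fell to 4 without NTB mouse 1 and 2 without NTB mouse 2, and the calls lower to 4, 4, 3 and 3 without NTB mouse 1, 2 or 3 or vehicle mouse 1.

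Antioxidant genes were also mixed, with 8 of 37 higher and 4 lower, or 9 and 8 with the pool as a block. Gclm, the regulatory subunit of the enzyme that starts glutathione synthesis, was at 112, 125 and 118 CPM in NTB-GMPs and 216, 255 and 235 in Veh-GMPs (log2 0.97, SE 0.11, adjusted p = 9.64e-06). Prdx1, a peroxiredoxin, rose from 281, 226 and 223 CPM to 402, 406 and 396 (log2 0.74, SE 0.10, adjusted p = 2.94e-05), and Sod2, the mitochondrial superoxide dismutase, by 0.51. Hmox1, heme oxygenase, which shares regulators with these genes, fell from 6.54, 6.27 and 4.81 CPM to 1.68, 1.88 and 1.55 (log2 -1.76, SE 0.40, adjusted p = 0.006). The groups did not overlap for any of these 3 genes with values per mouse. The number higher was 4 without NTB mouse 2, NTB mouse 3 or vehicle mouse 1, and the number lower was 2 without NTB mouse 2 or vehicle mouse 2. Among 21 iron and heme genes, 3 were higher and 1 was lower, against 6.63% higher and 4.69% lower of all genes tested. Tfrc, the transferrin receptor, was at 56.7, 75.3 and 106 CPM against 126, 121 and 119 (log2 0.55, SE 0.14, adjusted p = 0.0131), and its call was lost without NTB mouse 1 or 2 or vehicle mouse 1 (adjusted p up to 0.0915).

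Cytokine signaling genes moved in a few members only. Pim1, a kinase and STAT5 target (chromosome 17, 29490753 to 29496112, plus strand), was at 40.3, 55.2 and 66.9 CPM in NTB-GMPs and 144, 97.2 and 145 in Veh-GMPs (log2 1.23, SE 0.29, adjusted p = 0.00775). The call was lost without NTB mouse 2, at adjusted p = 0.0505, and Pim1 was not called by DESeq2 (adjusted p = 0.051). Csf2rb, the shared signaling chain of the GM-CSF, IL-3 and IL-5 receptors (chromosome 15, 78325752 to 78353847, plus strand), went from 26.2, 42.7 and 46.7 CPM to 68.8, 80.9 and 91.6 (log2 0.97, SE 0.26, adjusted p = 0.0183). The vehicle mice were above the NTB mice in both genes, but the Csf2rb call was lost when any 1 NTB mouse or vehicle mouse 3 was left out (adjusted p up to 0.078) or with DESeq2 (adjusted p = 0.0552). The GM-CSF receptor alpha chain Csf2ra was at log2 -0.28 (adjusted p = 0.0783, or 0.0339 with the block). Csf3r, the G-CSF receptor, was at 108, 124 and 124 CPM against 93.2, 109 and 119, which overlapped (log2 -0.18, SE 0.11, adjusted p = 0.3). In the JAK-STAT target list 4 of 25 genes were higher and none was called lower, against a median of 0.04. Those 4 were Pim1, Bcl3, Junb and Cebpb, and the count was 2 without NTB mouse 1 or vehicle mouse 2 and 1 without NTB mouse 2, NTB mouse 3 or vehicle mouse 1. Stat3 itself was at log2 0.04 (adjusted p = 0.886).

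Other receptors that passed the test went down. Of 27 growth factor and cytokine receptors tested, 5 were lower and Csf2rb alone was higher, with a median of -0.18, and with the block 6 were lower and 2 higher. Cxcr4, the CXCL12 receptor that retains progenitors in the marrow, was at 94.8, 79.7 and 81.4 CPM in NTB-GMPs and 54.8, 48.9 and 58.0 in Veh-GMPs (log2 -0.62, SE 0.11, adjusted p = 0.000719). Kit, the stem cell factor receptor by which the marrow was enriched, was at 64.3, 84.7 and 68.4 CPM against 46.2, 40.1 and 43.3 (log2 -0.73, SE 0.13, adjusted p = 0.000757). In both receptors all vehicle mice lay below all NTB mice. Il6ra fell from 11.99, 5.65 and 12.04 CPM to 5.58, 4.39 and 4.47 (log2 -0.93, SE 0.30, adjusted p = 0.0458), a call lost when any mouse but NTB mouse 2 was left out (adjusted p up to 0.371). Ltb4r1, the leukotriene B4 receptor, fell by 0.59 and Ifngr1, of the interferon gamma receptor, by 0.33. The number lower was 3 when any 1 NTB mouse was left out and 2 without vehicle mouse 1 or 2.

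Transcription factors of lineage choice showed 2 increases and 6 decreases among 35 tested, against 6.63% higher and 4.69% lower of all genes tested. Increases were thus no more frequent in this list than over all genes. Hoxa9 (chromosome 6, 52223100 to 52231089, minus strand), which maintains immature progenitors, was at 7.63, 8.78 and 10.6 CPM in NTB-GMPs and 19.0, 25.7 and 21.0 in Veh-GMPs (log2 1.14, SE 0.27, adjusted p = 0.00732), and the call held without each mouse in turn. Cebpb, a factor of granulopoiesis under demand, rose from 173, 174 and 156 CPM to 219, 241 and 189.9 (log2 0.36, SE 0.10, adjusted p = 0.0174), which was lost without NTB mouse 3 or vehicle mouse 1 or 2 (adjusted p up to 0.145). Its relatives of steady granulopoiesis were not called, with Cebpa at log2 -0.19 (adjusted p = 0.409) and Cebpe at -0.10 (adjusted p = 0.566). Runx1 was at 73.0, 76.5 and 75.6 CPM against 56.6, 53.3 and 57.9 (log2 -0.42, SE 0.10, adjusted p = 0.0117). Id2, an inhibitor of E proteins, fell by 0.64 (SE 0.17, adjusted p = 0.0182, lost without NTB mouse 3 or vehicle mouse 3 with adjusted p up to 0.301), and Runx2, Zeb2 and Lmo4 fell by 0.53, 0.40 and 0.40. Erg, which also maintains immature progenitors, went from 30.5, 20.1 and 21.7 CPM to 14.6, 14.4 and 16.9, below all NTB mice (log2 -0.59, SE 0.18, adjusted p = 0.0347), and its call was lost when any mouse but vehicle mouse 3 was left out (adjusted p up to 0.152). The number lower was 3 without NTB mouse 1 or 2, 2 without NTB mouse 3, 3 without vehicle mouse 1 and 4 without vehicle mouse 3.

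Several surface and adhesion genes fell. In the list of adhesion and egress genes 7 of 32 (21.9%) fell and none was called higher, with a median of -0.13. With the block 9 fell and 2 were higher. Itgam, the CD11b chain of the Mac-1 integrin (chromosome 7, 128062640 to 128118491, plus strand), was at 85.0, 70.9 and 95.3 CPM in NTB-GMPs and 44.1, 41.4 and 41.7 in Veh-GMPs (log2 -0.97, SE 0.11, adjusted p = 1.27e-05). Its partner chain Itgb2 fell from 60.0, 66.5 and 55.4 CPM to 37.5, 42.0 and 39.2 (log2 -0.64, SE 0.13, adjusted p = 0.00191). The vehicle mice lay below the NTB mice for both chains of the integrin. Itgal, another chain that pairs with Itgb2, fell by 0.58, the hyaluronan receptor Cd44 by 0.65 and the lectin receptor Cd93 by 0.75. Lsp1, an actin-binding protein of leukocytes that was in no adhesion list, went from 31.6, 33.9 and 32.3 CPM to 12.8, 20.7 and 11.8 (log2 -1.28, SE 0.18, adjusted p = 7.39e-05).

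Genes of antigen presentation and interferon response were also lower or not called. Of 13 antigen presentation genes tested, 3 were lower and none was called higher, with a median of -0.30, and 6 were lower with the pool as a block. B2m, the light chain of MHC class I, was at 722, 659 and 608 CPM in NTB-GMPs and 550.0, 519 and 523 in Veh-GMPs (log2 -0.32, SE 0.10, adjusted p = 0.0441). Tapbp, tapasin, which loads peptide onto it, fell by 0.55 (SE 0.11, adjusted p = 0.00184). Cd74, the invariant chain of class II, was called but stood at 19.6, 0.627 and 5.30 CPM against 0.403, 0.627 and 2.33, where the groups overlapped, and its call was lost without NTB mouse 1 or 3 or vehicle mouse 1 or 2 (adjusted p up to 0.289). The list count was 1 without NTB mouse 1, vehicle mouse 1 or vehicle mouse 2, and 2 without vehicle mouse 3. In the interferon list 4 of 30 genes were lower and none was called higher, or 5 lower and 2 higher with the block. Sp100, a nuclear body protein, fell from 92.7, 80.9 and 86.7 CPM to 47.5, 42.6 and 46.6 (log2 -0.89, SE 0.11, adjusted p = 1.27e-05). Ifi27 fell from 98.1, 59.0 and 92.4 CPM to 44.4, 38.9 and 25.4 (log2 -1.15, SE 0.18, adjusted p = 0.0002), and the interferon count was 2 without NTB mouse 3. Of the Ly6 surface antigens, 3 of 4 tested were lower, and Ly6c1 and Ly6c2 are near-identical copies whose split is uncertain.

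Several of the largest changes belonged to none of the process lists. Clu, the secreted chaperone clusterin, was at 9.81, 18.2 and 15.9 CPM in NTB-GMPs and 35.6, 43.2 and 48.3 in Veh-GMPs (log2 1.42, SE 0.21, adjusted p = 0.000127). Scnn1a, a subunit of the epithelial sodium channel, fell from 44.7, 55.2 and 53.4 CPM to 19.2, 22.6 and 19.997 (log2 -1.39, SE 0.15, adjusted p = 9.64e-06). The axonemal dynein gene Dnah8 fell from 69.8, 63.4 and 66.9 CPM to 24.9, 32.6 and 25.4 (log2 -1.34, SE 0.18, adjusted p = 2.94e-05). Vehicle and NTB mice did not overlap in any of these, and each call held without each mouse in turn. F5, coagulation factor V, went from 30.5, 34.5 and 38.5 CPM to 15.1, 15.7 and 16.9 (log2 -1.17, SE 0.20, adjusted p = 0.000498). Slc25a4, the mitochondrial ADP/ATP carrier, was at 28.3, 29.5 and 18.8 CPM against 50.1, 52.0 and 45.2 (log2 0.99, SE 0.15, adjusted p = 0.000238), but with equal numbers of GMPs per UMI bin its value was -0.26. Fam136a, a mitochondrial protein, rose by 0.99 (SE 0.16) and the small nucleolar host RNA Snhg15 by 1.03 (SE 0.21).

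With cells assigned by hashtag ratio the list counts were lower in most cases. The calls higher were then 16 chaperones, 13 nucleolar genes, 4 synthetases, 1 amino acid response gene, 9 mitochondrial ribosome genes, 5 respiratory chain genes (with 2 lower), 4 proteasome genes, 3 genes of ER-associated degradation, 2 cholesterol genes (with 1 lower), 4 lipid genes (with 8 lower) and 1 JAK-STAT target. No receptor or lineage factor was called higher, and 4 receptors and 1 lineage factor were lower, as were 8 adhesion genes and 3 of the Ly6 family.

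Markers of other cells moved with the groups as follows. The summed level of 12 markers of later neutrophils was 3824 to 4323 CPM in NTB-GMPs and 1426 to 2778 in Veh-GMPs, and 5 of the 12 were lower and 1 higher. Of the 12 genes used to grade late granule content, which share members with those markers, 7 were lower and 1, Retnlg, was higher. Without NTB mouse 2, vehicle mouse 2 or vehicle mouse 3, 2 of the later neutrophil markers and 4 of the late granule genes were lower, and without NTB mouse 1 the counts were 3 and 5. Without the cells marked by Scrublet 2 of the later neutrophil markers and 4 of the late granule genes were lower and none of either was higher, and the median of the late granule genes was -0.34. Of the Ly6 family 2 were then lower. The Retnlg call was lost when any mouse but vehicle mouse 1 was left out (adjusted p up to 0.142). Fcnb, the ficolin of granulocyte granules, was at 1073, 1051 and 1080.3 CPM against 484, 427 and 488 (log2 -1.19, SE 0.15, adjusted p = 1.78e-05), and Lyz2, lysozyme, fell from 379, 290.5 and 299 CPM to 186, 74.0 and 88.1 (log2 -1.36, SE 0.22, adjusted p = 0.000322). When each mouse gave equal numbers of GMPs per bin of this content, 73 cells per mouse, 329 genes were called. The calls higher were then 8 chaperones, 7 nucleolar genes, 11 translocation genes, 3 transport genes, 1 gene of ER-associated degradation, 2 synthetases, 7 mitochondrial ribosome genes and 8 respiratory chain genes. No amino acid response gene, one-carbon gene or lineage factor was called, and 3 adhesion genes and 2 of the Ly6 family were lower. Glycolysis had 4 genes higher and 2 lower, the lipid list 3 and 2, the antioxidant list 4 and 3 and the receptors 1 and 3. The medians were 0.37 for the chaperones, 0.22 for the nucleolar genes, 0.25 for translocation, and -0.26 for adhesion. This matching did not make the late granule genes equal, since 5 of the 11 then tested were still lower and 1 was higher, with a median of -0.71 against -0.81 before it, and 3 of the later neutrophil markers were lower and 1 higher. Basophil and mast cell markers summed to 123 to 157 CPM in NTB-GMPs and 81.8 to 108 in Veh-GMPs. In that list Hdc, histidine decarboxylase, fell from 118, 139.9 and 123 CPM to 75.3, 62.7 and 65.0 (log2 -0.88, SE 0.11, adjusted p = 1.75e-05), while Mcpt8, the basophil protease, was called higher with overlapping groups and lost its call when any 1 NTB mouse or vehicle mouse 3 was left out (adjusted p up to 0.118). Of the 8 markers of hematopoietic stem cells, 4 were tested, and the summed level was 40.7 to 45.1 CPM in NTB-GMPs and 41.5 to 46.6 in Veh-GMPs. Hoxa9 was the member called higher, and Hlf, a transcription factor of stem cells, the member called lower, from 36.0, 20.1 and 19.7 CPM to 14.04, 11.9 and 18.2 (log2 -0.63, SE 0.20, adjusted p = 0.0466), a call lost when any mouse but vehicle mouse 3 was left out (adjusted p up to 0.251). B cell markers summed to 55.1 to 67.4 CPM against 31.2 to 35.8, and Ighm, the immunoglobulin heavy chain, was at 25.1, 23.2 and 37.5 CPM against 12.2, 11.9 and 19.997, with its call lost without NTB mouse 3 or vehicle mouse 1 (adjusted p up to 0.196). Monocyte markers summed to 59.1 to 72.5 against 55.4 to 69.6 CPM and erythroid markers to 15.03 to 29.5 against 8.43 to 31.9, both with overlap in the sum and no member called. With the pool as a block 2 of the 6 monocyte markers tested were higher and 1 was lower, among them Ms4a6c at 3.27, 7.53 and 5.78 CPM against 12.2, 9.40 and 8.54 (adjusted p = 0.0633, or 0.0477 with the block) and F13a1 at 39.2, 46.4 and 42.8 CPM against 35.7, 29.5 and 33.6 (adjusted p = 0.196, or 0.042 with the block). Dendritic cell markers summed to 47.1 to 76.6 against 66.2 to 71.9 CPM, mostly from Bst2 (30.3 to 49.6 CPM over the 6 mice) and Tcf4 (17.4 to 37.6), which other cells also express, while Siglech, Xcr1 and Clec9a were at 0 in all 6 mice. T and NK cell markers summed to 3.87 to 11.02 CPM against 3.39 to 3.86, mostly from Cd3d, with Cd3e, Cd3g, Trbc2 and Gzma at 0 in all 6 mice and 1 member tested. The part of free RNA or of a few other cells in the later neutrophil, B cell and mast cell values was not tested.

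Veh-GMPs held more UMIs per cell, and with equal numbers of GMPs per UMI bin the calls fell in some of the remaining lists and not in others. There were then 7 respiratory chain genes higher and 1 lower, 1 cholesterol gene higher, no one-carbon gene, no glycolysis gene higher and 1 lower, 3 lipid genes higher and 2 lower, 2 antioxidant genes higher and 1 lower, and 1 iron and heme gene higher. Of the signaling and surface lists, 1 receptor was higher and 2 lower, 1 JAK-STAT target higher, 2 lineage factors lower, 3 adhesion genes lower, 2 interferon genes lower and 1 antigen presentation gene lower. The counts were as before for the Ly6 family (3 lower), the later neutrophil markers (5 lower and 1 higher) and the late granule genes (7 lower and 1 higher). Shares of positive cells were therefore set at 3000 UMIs per cell, which left out 2, 7 and 14 NTB-GMPs and 12, 5 and 6 Veh-GMPs of lower depth. Fkbp11 was then found in 6.98%, 7.81% and 12.3% of NTB-GMPs and 35.9%, 32.2% and 33.9% of Veh-GMPs, and in 31.8%, 33.3% and 27.7% against 70.5%, 64.2% and 70.9% without thinning. Lipg was in 1.16%, 3.91% and 3.68% against 12.7%, 13.3% and 20.1%, and without thinning in 4.55%, 13.3% and 9.60% against 29.1%, 40.0% and 43.9%. Both were more frequent in every vehicle mouse. Itgam was in 22.1%, 17.97% and 23.3% of NTB-GMPs against 11.4%, 11.1% and 14.1%, and without thinning in 52.3%, 49.6% and 59.3% against 38.9%, 34.7% and 46.4%. Kit was in 10.5%, 16.4% and 17.8% against 9.95%, 10.0% and 10.2%, and without thinning in 44.3%, 56.3% and 46.9% against 39.0%, 38.9% and 43.6%. Lpl was in 6.98%, 6.25% and 8.59% against 1.99%, 0% and 0.353%, and without thinning in 21.6%, 21.5% and 20.3% against 6.49%, 6.32% and 4.50%. A level for comparison was read from 139 cells with Cd79a and Cd79b and no Ms4a3, which held a median of 6354 UMIs. Of these 139 cells, 43 were left out at 3000 UMIs, and 11.5% of those that stayed held Fkbp11, 1.04% Lipg, 1.04% Itgam, 7.29% Kit and 0% Lpl. The Fkbp11 share of NTB-GMPs was thus at or near the level of these cells, and the Kit shares of NTB mouse 1 and of the vehicle mice were 9.95% to 10.5%. These cells held Creld2 in 35.4% and Syvn1 in 20.8%, above the NTB-GMPs of every mouse, so that their Fkbp11 share need not be background. The cells with Cd79a and Cd79b came from marrow selected on c-Kit, so that their Kit share need not be background. Ltf was in 16.7% of the same cells, against 7.03% to 15.95% of NTB-GMPs and 5.56% to 9.89% of Veh-GMPs. Camp was in 22.9%, against 39.1% to 51.2% and 30.4% to 39.7%. Lyz2 was in 14.6%, against 30.5% to 38.65% and 10.0% to 19.4%. Retnlg was in 5.21%, against 3.91% to 6.13% and 2.19% to 8.89%. Fcnb was in 5.21%, against 81.6% to 84.4% and 59.6% to 62.2%.

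Levels in the BRQ mice, which share the pools with both groups, are set beside these as a description. Fkbp11 was at 53.2, 68.6 and 54.8 CPM in the BRQ mice, near the NTB level, and Fdps, of cholesterol synthesis, at 66.9, 57.5 and 51.1. Within the ER translocation list the members differed, since Ostc was at 205, 212 and 200.1 CPM under BRQ while Ssr2 was at 253, 240.2 and 243, above all NTB mice and below all vehicle mice. Hspd1, of the chaperones outside the ER, was at 350.3, 308 and 429 CPM, above all NTB mice, with BRQ mouse 3 within the vehicle range. The centered median of the chaperone list was 0.095, -0.001 and 0.056 in BRQ mice, -0.198, -0.193 and -0.274 in NTB mice and 0.251, 0.243 and 0.148 in vehicle mice. Other genes were nearer to the vehicle than to the NTB levels under BRQ, though in part outside the vehicle range, among them Lpl at 5.10, 7.58 and 3.19 CPM, Gclm at 207, 191 and 248, and Hoxa9 at 20.9, 34.0 and 30.3. Ly6c2 and Itgam were nearer to the NTB level, at 147, 138 and 117 CPM and 70.5, 66.2 and 65.1.

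**Figure D5:**
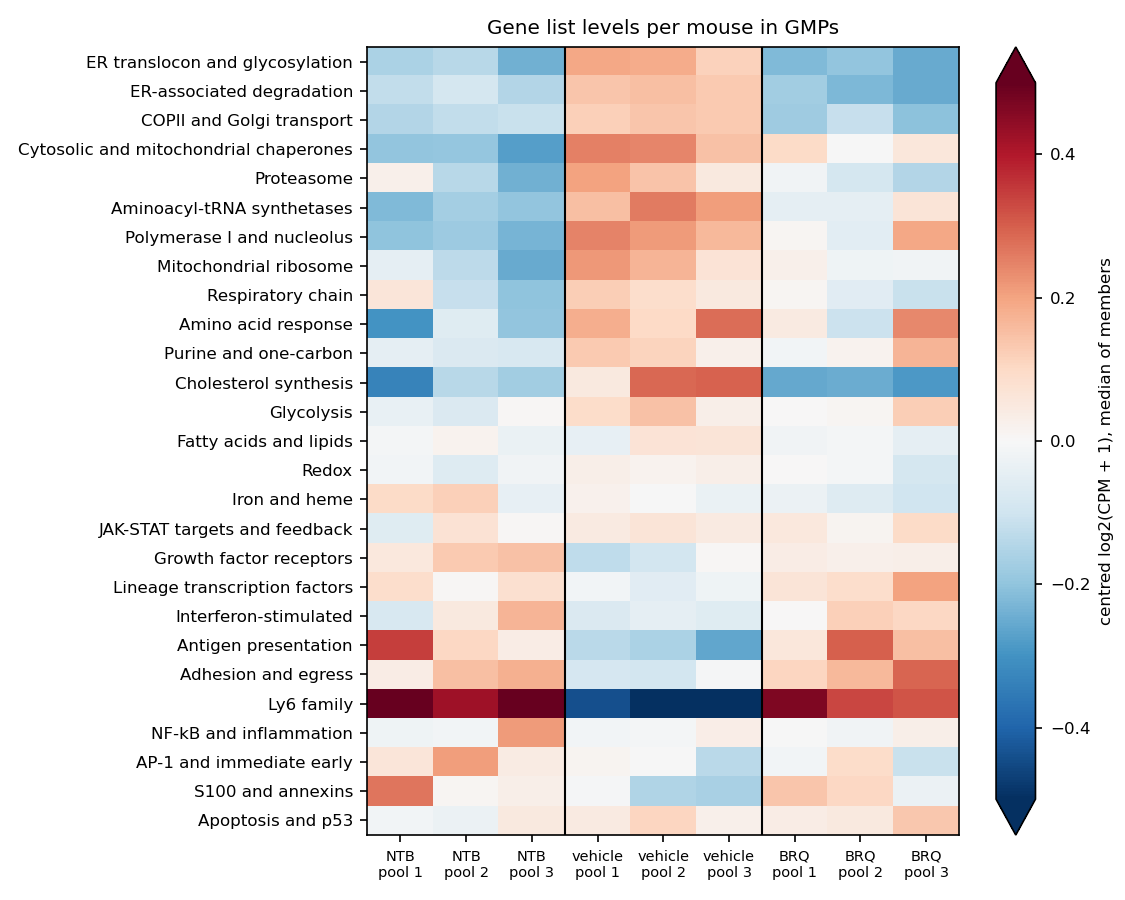
Level of 27 gene lists in the GMPs of each of the 9 mice. Colors are the median over the tested members of log2(CPM + 1) after centering each gene over the mice, clipped at the ends of the scale, and columns are mice grouped by treatment. The ER translocation row is positive in the 3 vehicle columns (0.115 to 0.195) and negative in the NTB and BRQ columns, and the Ly6 row is reversed.

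GMPs were last set beside assigned cells that held Mpo but no Ms4a3, taken as cells with no Ms4a3 UMI and ln(1 + Mpo UMIs per 10000) over 3. There were 12, 31 and 62 such cells in the NTB mice and 44, 7 and 47 in the vehicle mice, so that their values are far less certain than those of GMPs. In these cells 27 of 5088 genes were called between vehicle and NTB mice, and 355 had an unadjusted p under 0.05. Of the 856 genes that were called in GMPs and tested here, 463 had the same sign, with a median signed log2 difference of 0.032, against a median size of 0.49 in GMPs. The difference between the 2 cell kinds was tested as an interaction and called in 30 of 8152 genes (0.368%), with 762 at an unadjusted p under 0.05. Of 1090 genes that were called in GMPs and entered this test, 15 had a called interaction. Without vehicle mouse 1 the interaction count was 160, and without vehicle mouse 3 it was 8. Most GMP changes were therefore neither shown to be shared with these cells nor shown to differ from them.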

How the data were processed

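Gene expression of single cells was measured with 10x 3' libraries and hashtag antibodies in c-Kit-enriched marrow of 9 mice in 3 pools. The deposited values are raw counts of UMIs per gene or hashtag and barcode, made by the authors with Cell Ranger 6.0.0 on mm10, per the submitters' processing notes. No reads were used, and no per-sample column was left unassigned. The counts per pool and per mouse, which set the precision of each value, stand in the report.

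Barcodes with 500 to 7500 detected genes and at most 15% mitochondrial UMIs were kept. The study words these limits in transcripts, which were read as genes, and as UMIs in an alternative. HTODemux of Seurat 5.3.0, run pool by pool at a quantile of 0.99, assigned cells to mice, and only singlets were used. Which hashtag marks which group came from the labels. The Ms4a3 limit was applied to ln(1 + UMIs per 10000), whereas the study applied it to values from SCTransform with cell cycle scores regressed out. Likely doublets by Scrublet in scanpy 1.11.5 stayed in, except in an alternative.

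The GMP counts of each mouse were added up and tested with the two-sided quasi-likelihood test of edgeR 4.0.16 after filterByExpr and TMM scaling, over all 9 mice in 1 fit, without the pool, and a gene was called at a Benjamini-Hochberg adjusted p under 0.05. Ms4a3, which chose the cells, was left out of the tests. CPM values are TMM-scaled. A p-value measures the spread between these mice, each sampled once. Mice of 1 pool shared 1 sample per the labels, and log2 deviations of same-pool NTB and vehicle mice correlated at r = 0.099, 0.018 and 0.099 across genes, against -0.088 to 0.0072 between pools, so the pool entered as a block in a fit beside the main one. DESeq2 1.42.0, other limits, other scalings, thinned sums, cells matched over 4 bins of UMI or late granule content and the removal of each mouse were alternatives. The edgeR fit and the interaction fit were run on simulated sums with known fold changes, and the other steps were not.

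Genes named are, among called genes with a mean of at least 20 CPM and no overlap, the 12 at each end of the log2 fold changes, and from each of 38 gene lists the 2 called genes at each end. Further list members are named to describe a pathway and were chosen after their values were seen. The GMP rule, the lists and the tests were chosen with earlier results of these data known, and the lists were written from general knowledge, so counts over a list are descriptions. Gene positions come from GENCODE M21 (GRCm38) and promoter sequences from RefSeq (GRCm38.p6), which held 8193 of the 10330 genes tested and 70 of the 88 genes of the naming rule. The software was Python 3.11.15 with matplotlib 3.10.9, pandas 2.3.3, scipy 1.17.1 and numpy 2.4.6, and R 4.3.3.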

Additional observations from a re-analysis of the deposited data

Results flagged for a closer look

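In 4 of the named genes the difference between vehicle and NTB mice was not the same in GMPs and in the Ms4a3-free cells with Mpo, by the interaction test of edgeR (30 of 8152 genes called). The interaction, GMPs minus Ms4a3-free cells, was -2.96 for Cd84, -2.35 for Itgam, -2.21 for Lsp1 and -3.65 for Ighm on the log2 scale. Itgam was at 8.45, 26.5 and 64.2 CPM (without TMM scaling) in the Ms4a3-free cells of NTB mice and 39.5, 143 and 188 in those of vehicle mice, while in GMPs it was at 78.1, 68.7 and 95.7 against 40.9, 39.7 and 40.5. Cd84, a homophilic surface receptor of the SLAM family, was at 50.7, 41.6 and 49.9 CPM in the Ms4a3-free cells of NTB mice and at 75.5, 191 and 342 in those of vehicle mice. In both genes the vehicle mice were thus higher, or overlapping, among the Ms4a3-free cells and lower among the GMPs. Ighm in the Ms4a3-free cells rested on 1 mouse, since 1695 of the 278237 UMIs in vehicle mouse 1 were Ighm, against 12 of 20965 and 38 of 143304 in the others. The Ms4a3-free cells of vehicle mouse 2 numbered 7 and held 20965 UMIs, so 3 UMIs of Itgam and 4 of Cd84 set its values.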

How the results depend on the processing

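The number of genes called in GMPs (1169, with 685 higher and 484 lower) depended on which cells were taken and on how many. An Ms4a3 limit of 2.5 gave 2509 genes (1355 higher, 1154 lower) and a limit of 3.5 gave 40 (26 higher, 14 lower). The limit of 2.5 took 207, 361 and 568 NTB-GMPs and 1564, 158 and 534 Veh-GMPs. The limit of 3.5 took 9, 6 and 14 NTB-GMPs and 183, 13 and 27 Veh-GMPs. Cell type and cell number thus cannot be told apart in these counts. Hashtag calls by tag ratio gave 637 (312 higher), a share higher of 48.98% against 58.6%. Without a filter on low counts the share higher was 66.9%, and with only the NTB and vehicle mice in the fit 52.3%. Reading the limits as UMIs gave 0 calls, 0 higher and 0 lower, by edgeR, with 250 genes at an unadjusted p under 0.05, and edgeR was the only tool applied there. Sums thinned to the smallest total gave 588 (325 higher, 263 lower), equal GMPs per UMI bin 288 (159 and 129) and equal GMPs per late granule bin 329 (184 and 145), each with fewer UMIs. Leaving out each mouse gave 538 to 1019 genes, 296 to 636 higher and 242 to 385 lower. DESeq2 called 913 genes, of which 890 were among the edgeR calls, and gave no adjusted p for 1803. Of the 88 genes of the naming rule, DESeq2 called 74, gave no adjusted p for 6 and did not call Aldh18a1, Camp, Csf2rb, Erg, Ldhb, Nfkb1, Pim1 and Syvn1. By DESeq2 the receptor list had 0 genes higher and 4 lower, the amino acid response list 2 higher, ER-associated degradation 3 higher, the antioxidant list 5 higher and 3 lower and the later neutrophil markers 2 lower.

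With the pool as a replicate block 1693 genes were called (989 higher, 704 lower), 1162 of them shared with the main fit. Among the 88 genes of the naming rule the block ended 1 call, that of Syvn1, and 48 of the 88 were called whichever mouse was left out. The interaction count (30) was 73 at an Ms4a3 limit of 2.5, 6 with tag ratio calls and 8 to 160 with each mouse left out. The difference in GMP share (17.0 points) was -0.092 with the limits read as UMIs. Single genes turned direction in few settings: at a limit of 3.5, the Chil3 log2 fold change was 0.62, the Csf2rb log2 fold change -0.22, the Erg log2 fold change 0.030 and the Retnlg log2 fold change -0.032, with -0.077 at a limit of 2.5. With the limits read as UMIs, the Ifi27 log2 fold change was 0.047, the Nfkb1 log2 fold change 0.19 and the Nolc1 log2 fold change -0.023, and with equal GMPs per UMI bin the Slc25a4 log2 fold change was -0.26. The causes were not tested. List medians kept their sign in all 19 alternatives for chaperones (0.19 to 0.48), nucleolar genes (0.22 to 0.45), the mitochondrial ribosome (0.11 to 0.40), ER translocation (0.18 to 0.38), antigen presentation (-0.55 to -0.25) and adhesion (-0.36 to -0.089), whereas the tRNA synthetase median was -0.12 with the limits read as UMIs, when 10 members were tested.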
